A study of Mus musculus with 8 samples.

Results

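Blood stem cells of normal chimeric mice were compared with the wider pool of stem and progenitor cells from which they are sorted. The comparison is HSC (CD150+ CD48- KSL, 2 arrays) minus whole KSL (2 arrays), and its members are the 4 arrays of normal mice out of 8 in the series, read over all 18193 genes that the platform annotation names by 1 symbol. KSL stands for marrow cells that lack lineage markers and carry Kit and Sca-1. HSC are themselves part of the KSL gate, so each difference sets a subset against a mixture that holds it, and in such bulk samples fewer cells of a type and less RNA per cell cannot be told apart.

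The series used Affymetrix mouse arrays to ask how non-transformed HSC and KSL cells differ between leukemic and normal mice, with 2 arrays in each of 4 groups. Leukemic mice were hosts of the CD45.1+ type that received CD45.1+ marrow mixed with an equal number of CD45.2+ marrow cells carrying BCR-ABL and SCL-tTA. BCR-ABL is a fused tyrosine kinase that causes chronic myeloid leukaemia, and SCL-tTA is a driver active in stem and progenitor cells that turns BCR-ABL on when tetracycline is absent. Normal mice were made the same way but without the BCR-ABL transgene, and the labels do not say whether their CD45.2+ marrow still carried SCL-tTA. The HSC group of normal mice held CD45.1+ CD150+ CD48- KSL cells, and the KSL group held all CD45.1+ KSL cells. Per the design text, cells were sorted 4 weeks after the Tet water was removed. Hosts and the CD45.1+ donor marrow share that marker, so the sort did not separate host from donor CD45.1+ cells. The labels state no age and no strain and do not say that replicate arrays came from separate animals, so p-values measure the spread between these samples.

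Long-term HSC divide rarely and can rebuild the whole blood system, and in the mouse they are marked by CD150 (the SLAM family receptor encoded by Slamf1) and by the absence of CD48. Most KSL cells are not HSC but multipotent progenitors, which divide often and have begun to transcribe genes of the myeloid or lymphoid lineages. A comparison of the fractions therefore reads stem cell genes against genes of early lineage choice and of the cell cycle.

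All levels below are log2 intensities as deposited, all differences are HSC minus KSL on that scale, and an error after a difference is its standard error in limma with n = 2 arrays per group. No deposited value lies below 10 in linear units (3.32 in log2), and 14.9% to 15.8% of probe sets per array sit at that floor. Replicate arrays correlated with r = 0.965 in HSC and 0.988 in KSL across genes, and the median SD of a gene was 0.196 and 0.114. Array 1 of both groups had a male pattern: Xist, the RNA that silences an X chromosome in females, was at 5.79 in HSC and 3.67 in KSL there, against 11.94 and 11.71 on array 2. Eif2s3y, on the Y chromosome, was at 9.23 and 9.35 on array 1 and 6.01 and 6.25 on array 2, so this pattern is balanced between HSC and KSL. The hybridisation spike BioB was at 9.89 and 9.83 in HSC and 9.17 and 9.36 in KSL. The difference between 3 prime and 5 prime probes of Tfrc, which reads RNA quality, was -2.04 and -1.74 in HSC and -1.28 and -1.58 in KSL, while that of Gapdh was 0.78 and 0.83 against 0.89 and 0.74. The part of these values in the results was not tested.

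HSC differed from KSL in 328 genes at a limma adjusted p under 0.05. Of these, 146 were higher in HSC, which is 0.803% of the genes tested, and 182 were lower, which is 1.00%. The genes that were lower differed more: their median difference was -1.72, against 1.26 for those that were higher, and 45 were lower by more than 8-fold while 14 were higher by more than 8-fold. The called genes with the largest differences included, on the higher side, the platelet granule gene Mmrn1 and the HSC identity genes Hoxb5 and Procr. On the lower side they included immunoglobulin light chain segments and the granule proteases Ctsg and Elane. Over all 18193 genes the median difference was 0.00, with 9102 genes above 0 and 9091 below. Each called gene had arrays that did not overlap, whereas 24.2% of all genes did not overlap with HSC higher and 19.3% did not overlap with HSC lower.

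The calls rest on the spread of all 8 arrays: with the 4 normal arrays alone, limma called 0 genes, with 2916 at an unadjusted p under 0.05. Leaving out KSL array 1 or 2 of normal mice left 13 and 15 genes higher and 35 and 27 lower, leaving out either KSL array of leukemic mice left 5 higher and 15 lower, and leaving out HSC array 1 or 2 of normal mice gave 248 and 176 higher and 212 and 116 lower. Since each called gene has groups that do not overlap, its sign cannot turn when an array is left out, and the kept direction is no sign of stability. Without array 1 of both normal groups, the arrays with the male pattern, the medians of the HSC identity, granulocyte-monocyte progenitor and mitosis lists described below were 1.87, -3.01 and -0.87.

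**Figure D1:**
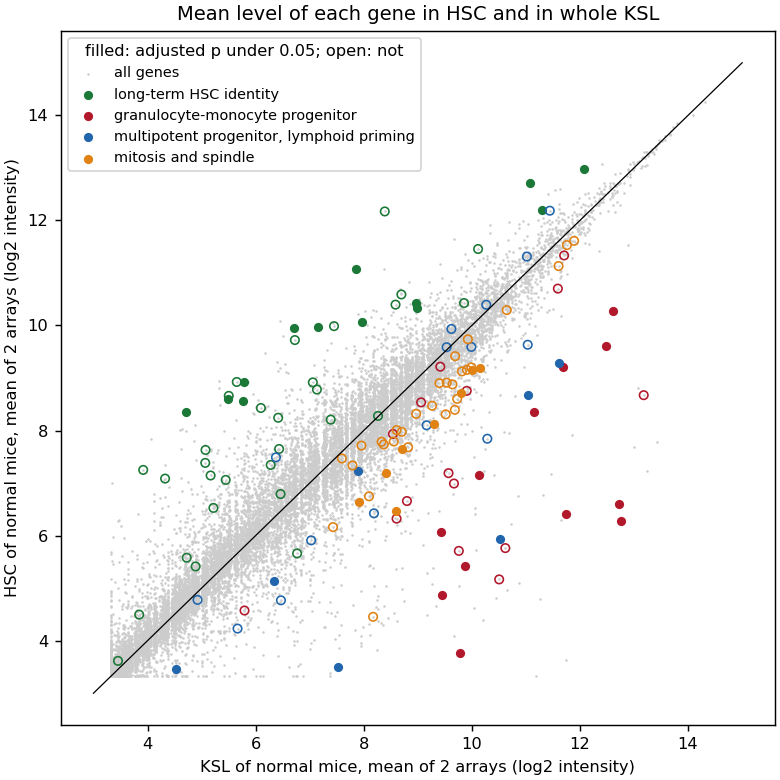
Mean log2 intensity of each of the 18193 genes in KSL (horizontal axis) and in HSC (vertical axis) of normal mice, 2 arrays each, with 4 gene lists coloured and the line of equal level drawn. Filled points passed the limma test at an adjusted p under 0.05; the filled green HSC identity genes lie above the line and the filled red, blue and orange genes below it.

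The genes of the sort gate were in the order the gates give, but none of the 7 measured passed the test. Slamf1 was at 8.90 and 9.36 in HSC and 5.76 and 7.06 in KSL, a difference of 2.72 ± 0.51 (adjusted p = 0.0958). Cd48 was at 6.19 and 8.12 in HSC and 10.44 and 10.40 in KSL, a difference of -3.26 ± 0.82 (adjusted p = 0.158). For each of these genes the arrays did not overlap, and the HSC arrays of Cd48 lay far apart. Of all genes, 24.2% did not overlap with HSC higher and 19.3% with HSC lower.

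Flt3, the cytokine receptor that marks multipotent progenitors, was at 8.81 and 6.88 in HSC and 10.57 and 9.999 in KSL, with an adjusted p of 0.273. Cd34, a surface sialomucin that long-term HSC of the mouse carry at a low level, was at 9.77 and 9.49 in HSC and 11.05 and 11.02 in KSL (difference -1.40 ± 0.22, adjusted p = 0.0666). Kit, which both gates select, differed by 0.62 ± 0.37 and Ptprc, the gene of CD45, by -0.39 ± 0.21. Cd27, a receptor of early progenitors, differed by 0.22 ± 0.20. The gene of Sca-1 was not analysed here. The labelled cell types thus carried the defining transcripts that were measured, and Cd48 was not at the floor in HSC.

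**Figure D2:**
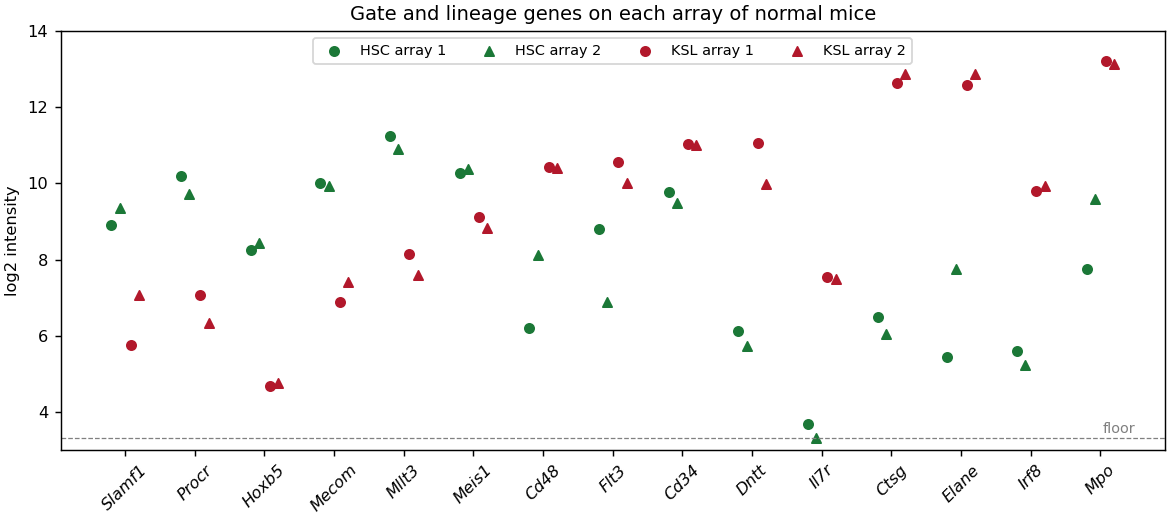
Log2 intensity of 15 gate and lineage genes on each of the 4 arrays of normal mice (green, HSC; red, KSL; circles, array 1; triangles, array 2; dashed line, floor). The first 6 genes were higher on both HSC arrays and the other 9 higher on both KSL arrays; Il7r was at the floor on HSC array 2.

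Genes of long-term HSC identity held 13 members higher in HSC and 0 lower. Of 43 measured members of this list, 13 passed, 42 lay above 0 and the median difference was 1.83, against 0.00 over all genes. Hoxb5, a homeobox gene used as a reporter of long-term HSC, was at 8.26 and 8.44 in HSC and 4.67 and 4.76 in KSL, a difference of 3.63 ± 0.35 (adjusted p = 0.0265). Procr, which encodes the endothelial protein C receptor and marks HSC, was at 10.18 and 9.73 against 7.07 and 6.34, a difference of 3.25 ± 0.29 (adjusted p = 0.0233). Mllt3, a reader of acetylated chromatin that maintains HSC, was at 11.24 and 10.92 against 8.14 and 7.58 (3.22 ± 0.23, adjusted p = 0.0167). These 3 genes stood apart by more than 2 log2 units between the nearest HSC and KSL arrays.

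Aldh1a1, an aldehyde dehydrogenase that makes retinoic acid, was at 8.67 and 9.17 in HSC and 5.63 and 5.96 in KSL (3.13 ± 0.21, adjusted p = 0.0149). Fhl1, a LIM domain protein, was at 8.72 and 8.48 against 5.62 and 5.35 (3.12 ± 0.21, adjusted p = 0.0152), although its other probe set differed by 0.00. Mecom, the zinc finger factor EVI1 needed for HSC self-renewal, was at 10 and 9.94 against 6.89 and 7.41 (2.82 ± 0.34, adjusted p = 0.043). The other called members, chosen here after their values were seen, were Trpc6, Mycn, Ifitm1, Angpt1, Meis1, Ifitm3 and Adgrg1, with differences from 0.90 to 2.81.

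Some well-known HSC genes missed the threshold with large differences. These were also picked after their values were seen. Tgm2, a transglutaminase, was at 12.29 and 12.05 in HSC and 7.66 and 9.11 in KSL (3.78 ± 0.53, adjusted p = 0.0556). Vwf, the platelet adhesion protein that marks a platelet-biased part of the HSC pool, was at 8.79 and 10.65 against 6.39 and 7.06 (2.996 ± 0.71, adjusted p = 0.145). Esam, an adhesion molecule of HSC, was at 8.67 and 8.65 against 5.61 and 5.40 (3.16 ± 0.59, adjusted p = 0.0956). In each of these genes the arrays did not overlap, which also held for 24.2% of all genes with HSC higher. Jam3, at a difference of -1.11, was the only member below 0. Without KSL array 1 or 2 the list had 1 and 0 calls, and its median was 1.84 and 1.64.

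Of 27 transcription factors of self-renewal, 5 passed and were higher, 23 lay above 0, 4 below, and the median was 0.68. The lowest was Gfi1, a transcriptional repressor that HSC need to stay quiescent, at 6.45 and 7.54 in HSC and 9.61 and 9.72 in KSL (-2.68 ± 0.54, adjusted p = 0.108), picked after its value was seen. Besides Mecom, those that passed were Mycn, a MYC family factor of HSC, at 10.20 and 9.95 in HSC and 7.95 and 7.99 in KSL (2.10 ± 0.10, adjusted p = 0.00952), and Meis1, the partner of HOX proteins, at 10.28 and 10.38 against 9.12 and 8.84 (1.35 ± 0.16, adjusted p = 0.0406). Probe sets of Mycn disagreed in size, from 0.205 to 2.38. Erg, an ETS factor, differed by 0.93 ± 0.09 and Lmo2, the bridging protein of the SCL complex, by 0.61 ± 0.06 (adjusted p = 0.0252 and 0.0301). Lmo2 was high in both fractions, at 12.21 and 12.22 in HSC and 11.64 and 11.57 in KSL. Since KSL holds HSC, the KSL levels of these factors do not show which cells of KSL transcribed them. With the 4 normal arrays alone 0 members of this list passed. Without KSL array 1 or 2 its median was 0.65 and 0.60.

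The largest differences among all genes higher in HSC included genes outside the identity list. Mmrn1, which encodes multimerin of platelet granules and endothelium, was at 10.08 and 10.09 in HSC and 6.33 and 6.55 in KSL, a 12.5-fold difference of 3.65 ± 0.08 (adjusted p = 0.000976). Its standard error was the smallest of the 12 leading genes higher in HSC. Fstl1, a secreted glycoprotein of the follistatin family, was at 8.42 and 9.46 against 5.14 and 5.49 (3.63 ± 0.43, adjusted p = 0.0408). Bgn, the matrix proteoglycan biglycan, was at 8.81 and 8.80 against 5.44 and 5.21 (3.48 ± 0.38, adjusted p = 0.0342). Both encode secreted proteins better known from connective tissue.

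Abcg3, an ABC transporter gene, was at 8.50 and 7.53 in HSC and 4.61 and 4.58 in KSL (3.42 ± 0.33, adjusted p = 0.0258). Nupr1, a small stress-induced nuclear protein, was at 9.23 and 9.72 against 5.85 and 6.50 (3.304 ± 0.30, adjusted p = 0.0238). Vipr2, a receptor for vasoactive intestinal peptide, was at 9.72 and 9.87 against 6.63 and 6.37 (3.3 ± 0.34, adjusted p = 0.0292). None of these 3 genes overlapped between the groups, which holds for every called gene.

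Of 27 measured megakaryocyte and platelet genes, Mmrn1 among them, 3 passed and were higher, 25 lay above 0 and the median was 1.05, which was 0.64 without HSC array 2 and 1.41 without HSC array 1. Rab27b, a GTPase of granule secretion in platelets, was at 8.87 and 9.32 in HSC and 6.24 and 6.97 in KSL (2.49 ± 0.30, adjusted p = 0.0411). Nfe2, the transcription factor of platelet formation, was at 10.99 and 10.90 against 9.88 and 9.90 (1.05 ± 0.14, adjusted p = 0.0458). Rab27b had probe sets that disagreed in size, from 0.13 to 2.49.

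Genes linked to endothelium, a list made after values were seen, had 5 of 16 members higher and none lower, with a median of 1.85. They were Procr, Cavin1, a coat protein of caveolae (2.55 ± 0.23, adjusted p = 0.0236), Sox18, a factor of vessel development (2.40 ± 0.32, adjusted p = 0.0493), Myct1 (2.12 ± 0.14, adjusted p = 0.0149) and Ramp2, the partner of the adrenomedullin receptor (0.98 ± 0.13, adjusted p = 0.0455). Several of these genes are also known in HSC. With the 4 normal arrays alone none of these 5 passed. The median of the list lay between 1.68 and 1.81 when 1 normal array was left out. Cdh5, the cadherin that defines endothelial cells, was low throughout, at 4.64 and 4.32 in HSC and 4.18 and 4.06 in KSL. Of the 16 members 15 lay above 0, and Pecam1, the only member below, differed by -0.45 ± 0.27. Members above 0 that did not pass included Tie1 (1.83 ± 0.28, adjusted p = 0.0662), Tek (1.98 ± 0.59, adjusted p = 0.21) and Kdr (1.87 ± 0.90, adjusted p = 0.412). The HSC arrays of Kdr lay far apart, at 5.03 and 7.77, against 4.53 and 4.52 in KSL. Of 20 genes of stroma and endothelium listed as other cells, 1 passed: Sparc, a matrix protein, was at 6.91 and 6.47 in HSC and 5.27 and 4.85 in KSL (1.63 ± 0.21, adjusted p = 0.0466). That list's summed linear level was 1518 and 1522 in HSC and 1229 and 1487 in KSL, with 2 of 20 members at the floor on each array. Col1a1, which defines fibroblasts, was at 4.47 and 5.41 against 5.14 and 5.88.

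Genes of granulocyte and monocyte progenitors were the group lowest in HSC relative to KSL among the lists written from textbook knowledge. That rank was not steady. Without KSL array 1 their median was -2.74, against -3.46 for genes of mast cells, basophils and eosinophils. With all arrays, all 27 measured members of the granulocyte-monocyte list lay below 0, 12 passed, all lower, and the median difference was -2.79. Ctsg, the neutrophil granule protease cathepsin G, was at 6.50 and 6.04 in HSC and 12.65 and 12.88 in KSL, 89.8-fold lower in HSC (-6.49 ± 0.25, adjusted p = 0.00482). Elane, neutrophil elastase, was at 5.45 and 7.75 against 12.59 and 12.86 (-6.13 ± 0.77, adjusted p = 0.0437). Ly86, the MD-1 protein of a Toll-like receptor homologue on myeloid and B cells, was at 3.80 and 3.71 against 9.73 and 9.83 (-6.03 ± 0.38, adjusted p = 0.0149). Both HSC arrays lay below both KSL arrays for each of these genes, as for every gene called lower, and the HSC arrays of Elane lay far apart.

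Ms4a3, a membrane protein of granulocyte-monocyte progenitors, was at 6.53 and 6.30 in HSC and 11.60 and 11.87 in KSL (-5.32 ± 0.20, adjusted p = 0.00482). Anxa3, a phospholipid-binding annexin of neutrophils, was at 5.02 and 4.73 against 9.35 and 9.53 (-4.57 ± 0.17, adjusted p = 0.00464). Irf8, the transcription factor of monocyte and dendritic cell development, was at 5.60 and 5.23 against 9.81 and 9.94 (-4.46 ± 0.24, adjusted p = 0.012). For each the groups were separated by more than 4 log2 units. The other called members were Hp, Alas1, Plac8, Ap3s1, Nkg7 and Prtn3, with differences from -3.36 to -2.34, again named after their values were seen.

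Mpo, myeloperoxidase, was at 7.75 and 9.60 in HSC and 13.23 and 13.13 in KSL, but its HSC arrays lay so far apart that the adjusted p was 0.0725. Csf1r, the receptor of macrophage colony-stimulating factor, was at 6.89 and 4.63 against 10.53 and 10.71 (adjusted p = 0.0677). Prtn3, proteinase 3, kept a level of 10.34 and 10.22 in HSC against 12.44 and 12.79 in KSL, so transcripts of this programme were measured in HSC too. Without KSL array 1 or 2 the list had 4 and 3 calls, with medians of -2.74 and -2.78.

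Of 22 multipotent progenitor and lymphoid priming genes, 7 passed and were lower in HSC, 16 lay below 0, 6 above, and the median was -1.09. Dntt, the terminal transferase that adds bases to antigen receptor joins, was at 6.12 and 5.73 in HSC and 11.07 and 9.98 in KSL, 24.2-fold lower (-4.60 ± 0.42, adjusted p = 0.0244). Il7r, the interleukin 7 receptor, was at 3.69 and 3.32 against 7.55 and 7.50 (-4.02 ± 0.32, adjusted p = 0.0204). Rag1, the recombinase of antigen receptor genes, was at 3.42 and 3.49 against 4.71 and 4.33 (-1.06 ± 0.13, adjusted p = 0.0435). Of these, Il7r was at the floor on 1 HSC array and Rag1 was close to it in both fractions.

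Cd52 and Cd53, surface proteins of lymphoid and other white cells, were lower by similar amounts, with differences of -2.35 ± 0.22 and -2.33 ± 0.28 (adjusted p = 0.0252 and 0.0428). Ccr9, a chemokine receptor of thymus-seeding progenitors, was at 5.05 and 5.22 in HSC and 6.50 and 6.17 in KSL (-1.20 ± 0.13, adjusted p = 0.0341), with other probe sets between -2.003 and 0.02. Satb1, a chromatin organiser of lymphoid priming, differed by -0.67 ± 0.07 (adjusted p = 0.0305). Without KSL array 1 the list had 0 calls and a median of -0.95.

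Further genes among the 12 with the largest differences on the lower side belong to no lineage list here. Atp8b4, of the phospholipid flippase family, was at 4.53 and 4.27 in HSC and 10.23 and 10.19 in KSL (-5.81 ± 0.09, adjusted p = 0.00065). Chdh, mitochondrial choline dehydrogenase, was at 4.32 and 5.29 against 10.27 and 10.63 (-5.65 ± 0.39, adjusted p = 0.0152). Cacna1d, a calcium channel subunit, was at 4.44 and 3.73 against 9.44 and 9.89 (-5.58 ± 0.45, adjusted p = 0.0204), while its other probe set differed by -0.08. In all 3 genes both HSC arrays were dim and both KSL arrays bright. Tifab, an inhibitor of signalling through TRAF6, was at 4.69 and 4.56 against 9.96 and 10.13 (-5.42 ± 0.30, adjusted p = 0.013). Rab44, a large Rab GTPase, was at 6.51 and 5.94 against 10.55 and 10.90 (-4.50 ± 0.26, adjusted p = 0.0134).

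Of 13 measured genes of mast cells, basophils and eosinophils, 2 passed, both lower in HSC, 12 lay below 0 and the median was -2.49, or -3.46 without KSL array 1. Prg2, the major basic protein of eosinophil granules, was at 5.23 and 4.97 in HSC and 10.41 and 11.35 in KSL (-5.78 ± 0.32, adjusted p = 0.013). Ms4a2, the beta subunit of the mast cell receptor for IgE, was measured at 4.12 and 3.67 against 8.08 and 7.83 (-4.06 ± 0.27, adjusted p = 0.0149). The summed linear level of the list was 300 and 350 in HSC and 3909 and 5824 in KSL, so both KSL arrays exceeded both HSC arrays.

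Of 18 T and NK cell genes, 2 passed and were lower, 15 lay below 0, 3 above, and the median was -1.31. Cd3e, a chain of the T cell receptor complex, was at 3.32 and 3.80 in HSC and 6.77 and 6.86 in KSL (-3.25 ± 0.20, adjusted p = 0.0141). Nkg7, a granule protein of NK cells and of some myeloid progenitors that also stands in the granulocyte-monocyte list, was at 8.90 and 9.52 against 11.61 and 11.77 (-2.48 ± 0.25, adjusted p = 0.0287). The list's summed linear level was 1493 and 1634 in HSC and 4957 and 6051 in KSL, with 4 of 18 members at the floor on each HSC array and 2 on each KSL array. The part of mature T cells in this result was not tested.

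Immunoglobulin and plasma cell genes, a list made after values were seen, lay below 0 in all 17 members, with a median of -4.27 (-2.68 without HSC array 2), and 4 passed. Igk-V21, a light chain segment, was at 3.61 and 3.67 in HSC and 11.09 and 12.41 in KSL (-8.11 ± 0.57, adjusted p = 0.0154), the largest difference of any gene. Igha, the heavy chain of IgA, was at 6.81 and 7.67 against 12.67 and 13.83 (-6.01 ± 0.56, adjusted p = 0.0254). Another kappa light chain segment was at the floor on both HSC arrays and at least 234-fold lower there (adjusted p = 0.0204). Segments of this family are near-identical, and their probe sets may read each other.

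HSC arrays disagreed on this signal. Igk, the kappa constant region, was at 11.14 and 4.42 in HSC and 13.27 and 13.57 in KSL, and Jchain, which joins secreted IgA and IgM, was at 8.08 and 4.50 against 11.33 and 11.97. The summed linear level was 5324 and 1881 in HSC against 41765 and 65462 in KSL. It was 32836 and 42771 in HSC of leukemic mice, so the summed level was low in HSC of normal mice and not in HSC of leukemic mice. Members differed in this: Igkv15-103, also called, was at 4.89 and 4.69 in HSC and 11.20 and 11.31 in KSL of normal mice (-6.47 ± 0.11, adjusted p = 0.00065), and in leukemic mice it was at 4.88 and 4.96 in HSC against 8.69 and 8.47 in KSL. Ighg3, the heavy chain of an IgG class, was likewise at 4.91 and 5.07 in HSC and 6.71 and 7.34 in KSL of leukemic mice. Among other plasma cell genes, Prdm1 was at 5.89 and 5.39 in HSC and 5.47 and 6.88 in KSL and Sdc1 at 5.46 and 5.61 against 6.05 and 5.81, so that Prdm1 overlapped between the groups. Xbp1 differed by -0.58 ± 0.31 and also overlapped. Differences were larger, without a call, in Mzb1 (-2.64 ± 0.50, adjusted p = 0.0955), Derl3 (-1.59 ± 0.72, adjusted p = 0.384), Tnfrsf17 (-1.40 ± 0.31, adjusted p = 0.126) and Irf4 (-1.39 ± 0.82, adjusted p = 0.516). The part of antibody-secreting cells in this result was not tested.

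Other mature lineages gave no calls. Erythroid genes had a median of 0.59 over 21 members with 0 passing, and the value turned to -0.10 without HSC array 1 and was 1.71 without HSC array 2. The summed erythroid level was 20843 and 8686 in HSC and 10101 and 5687 in KSL. Epor, the erythropoietin receptor, was at 8.17 and 8.37 in HSC and 6.82 and 6.11 in KSL (adjusted p = 0.0695), and Car2, carbonic anhydrase 2, at 12.64 and 12.35 against 11.66 and 11.16 (adjusted p = 0.118). These 2 genes, which early progenitors also transcribe, had the smallest p of that list.

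Mature neutrophil and monocyte genes had a median of -0.25 over 17 members with 0 passing, and -1.26 without HSC array 1 but 0.31 without HSC array 2. Their summed level was 15189 and 4473 in HSC and 9672 and 8294 in KSL, so HSC array 1 was the highest and HSC array 2 the lowest of the 4. Macrophage and dendritic genes had a median of -0.74 over 15 members and B lineage genes -0.15 over 13, with 0 passing in either. The former was -0.13 without KSL array 2, and the latter -0.52 without HSC array 2 and 0.00 without KSL array 1. Their summed levels were 993 and 1232 in HSC and 1166 and 1606 in KSL for the former, and 584 and 1122 against 829 and 1179 for the latter. Cd79a, which defines B cells, was at 5.45 and 5.18 in HSC and 6.05 and 7.93 in KSL, and C1qa, of macrophages, at 5.00 and 5.04 against 4.32 and 6.14.

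Genes of mitosis and the spindle held 8 members lower in HSC and 0 higher. All 37 measured members lay below 0, and the median difference was -0.76. With either KSL array left out the list had 0 calls, with medians of -0.84 and -0.73. Many genes of this class carry in their promoters the cell cycle genes homology region, a short element bound by the DREAM and MuvB complexes, and CCAAT boxes bound by NF-Y. The sequences of the 3 called members with the largest difference among those that hold the element are shown, each as the 250 bases before the annotated start, 5′ to 3′ on the gene's strand, from RefSeq on GRCm38.p6. Capitals mark the element, TTTGAA or its reverse complement TTCAAA. Kif2c lies at chr4:117178773-117179022 on the minus strand, Kif22 at chr7:127042421-127042670 on the minus strand and Kif11 at chr19:37376132-37376381 on the plus strand.
Kif2c: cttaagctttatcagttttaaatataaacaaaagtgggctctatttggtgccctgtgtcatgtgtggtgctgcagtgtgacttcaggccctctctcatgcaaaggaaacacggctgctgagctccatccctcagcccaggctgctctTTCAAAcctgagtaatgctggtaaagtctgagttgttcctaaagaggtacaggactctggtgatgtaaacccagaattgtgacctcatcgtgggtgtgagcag
Kif22: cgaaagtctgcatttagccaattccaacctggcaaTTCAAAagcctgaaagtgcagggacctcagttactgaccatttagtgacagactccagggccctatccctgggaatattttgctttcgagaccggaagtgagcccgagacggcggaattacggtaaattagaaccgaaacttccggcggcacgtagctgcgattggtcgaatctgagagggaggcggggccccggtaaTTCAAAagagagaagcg
Kif11: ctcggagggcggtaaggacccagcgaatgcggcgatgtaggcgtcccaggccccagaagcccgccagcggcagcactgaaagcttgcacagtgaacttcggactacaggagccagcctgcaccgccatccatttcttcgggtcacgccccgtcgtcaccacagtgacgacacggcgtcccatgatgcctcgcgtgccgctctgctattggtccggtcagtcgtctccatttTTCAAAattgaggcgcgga

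In Kif11 and Kif22 an element begins 19 and 17 bases before the start, in Kif22 another begins at 215, and in Kif2c it begins at 103. Of the 37 members, 32 had a promoter in the RefSeq table, 34 promoters in all. The element on either strand was in 12 of them (35.3%), against 16.0% of all 32851 promoters of that length. CCAAT on either strand was in 26 (76.5%), against 33.8%. E2F-type letters (TTTGGCGC, TTTCGCGC, TTTCCCGC or TTTGCCGC, either strand) were in 1 (2.94%), against 1.86%. None of these motifs contains another, and a match describes letters only.

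Kif2c, a kinesin that takes apart microtubule ends, was at 6.47 and 6.46 in HSC and 8.66 and 8.54 in KSL (-2.13 ± 0.25, adjusted p = 0.0403). Bub1, a kinase of the spindle checkpoint, was at 6.65 and 6.63 against 7.96 and 7.85 (-1.26 ± 0.13, adjusted p = 0.0314). Ttk, the checkpoint kinase MPS1, was at 7.02 and 7.38 against 8.48 and 8.33 (-1.21 ± 0.14, adjusted p = 0.0375). All 3 act at the attachment of chromosomes to the spindle.

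Kif22, a kinesin that binds chromosome arms, was at 8.17 and 8.08 in HSC and 9.26 and 9.33 in KSL (-1.17 ± 0.09, adjusted p = 0.0197). Kif11, the kinesin that separates spindle poles, was at 8.67 and 8.75 against 9.81 and 9.79 (-1.09 ± 0.07, adjusted p = 0.0149). Hmmr, a spindle assembly factor, was at 7.70 and 7.60 against 8.59 and 8.81 (-1.05 ± 0.12, adjusted p = 0.0365). Replicates of these genes lay close together, which favours a call, and the groups did not overlap, which holds for every called gene. Top2a, the topoisomerase that untangles sister chromosomes, and Cdca3, an adaptor for mitotic degradation, completed the called members and were named after their values were seen, at -0.97 ± 0.05 and -0.85 ± 0.10 (adjusted p = 0.012 and 0.0428). Mki67, the proliferation marker Ki-67, was at 11.14 and 11.12 in HSC and 11.66 and 11.55 in KSL (adjusted p = 0.271), so HSC arrays retained a high level of that transcript.

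**Figure D3:**
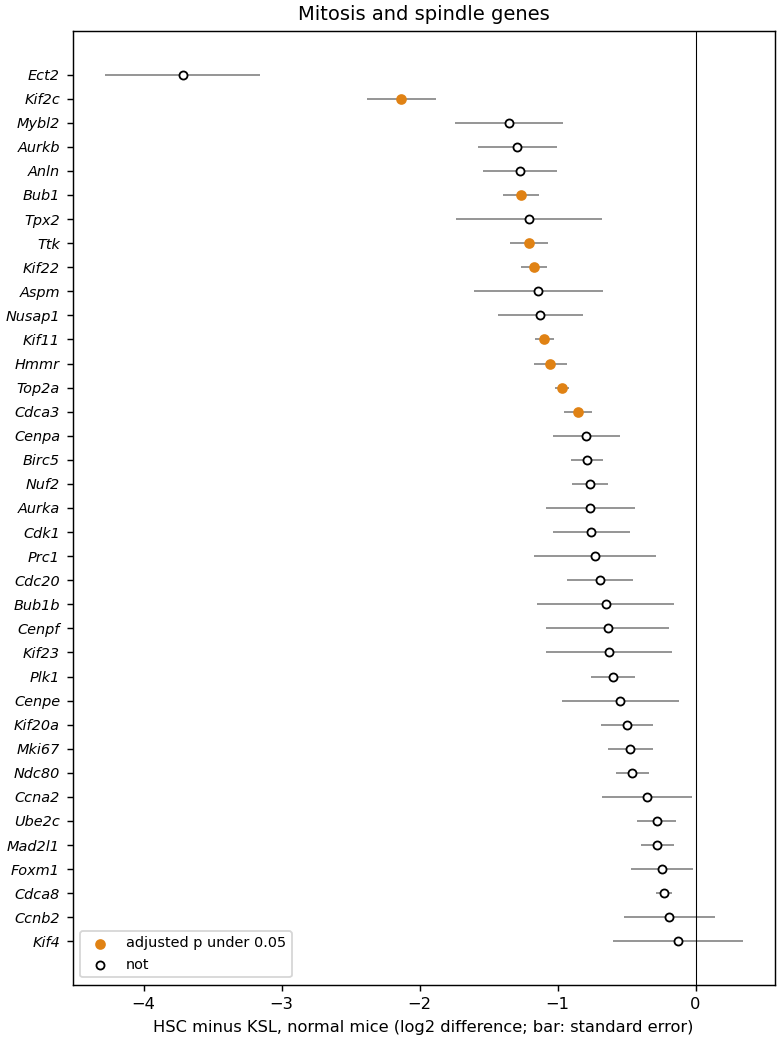
HSC minus KSL log2 difference of the 37 measured mitosis and spindle genes in normal mice (points) with the standard error of the limma fit (bars), ordered by size. Orange points are the 8 genes at an adjusted p under 0.05, and all 37 points lie below 0.

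Of 44 measured DNA replication genes, 0 passed, 37 lay below 0, 15 were lower at an unadjusted p under 0.05 and 1 was higher, and the median was -0.34. Over all 18193 genes, 1339 were lower and 1612 higher at that unadjusted threshold. Mcm10, a replication initiation factor, was at 8.25 and 8.18 in HSC and 8.89 and 9.05 in KSL (-0.75 ± 0.11, adjusted p = 0.0614), and Prim2, a primase subunit, was at 8.15 and 7.97 against 8.54 and 8.60 (-0.51 ± 0.08, adjusted p = 0.0696). Their promoters differed in letters from the mitosis list: of 43 promoters, 5 held TTTGAA (11.6%), 25 held CCAAT (58.1%) and 9 held the E2F letters (20.9%).

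Of 17 G1 cyclins and their kinases, 0 passed and the median was -0.05, between -0.21 and 0.04 when 1 normal array was left out. Cdk6, a kinase of entry into the cell cycle, was at 10.29 and 10.31 in HSC and 11.45 and 11.40 in KSL (-1.13 ± 0.17, adjusted p = 0.0652). Of 30 genes of quiescence and cell cycle inhibition 2 were higher. Txnip, a thioredoxin-binding protein linked to HSC quiescence, was at 11.41 and 10.98 against 9.99 and 10.03 (1.19 ± 0.15, adjusted p = 0.0435). Nfix, a nuclear factor of HSC survival, was at 12.56 and 12.62 against 11.46 and 11.81 (0.95 ± 0.12, adjusted p = 0.0452). The median of that list was 0.16, and it was -0.10 without HSC array 1, so the list as a whole had no steady direction.

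Members of the TGF-beta and BMP pathway, which acts on HSC dormancy, were higher in 3 of 28 cases and lower in 0, with a median of 0.26. Without HSC array 2 the median was 0.50, and with KSL array 1 or KSL array 2 left out only 1 member was called. Among ligands, Bmp4 was at 5.63 and 5.41 in HSC and 3.32 and 3.38 in KSL (2.17 ± 0.08, adjusted p = 0.00464). Among receptors, Tgfbr3, the co-receptor betaglycan, was at 9.39 and 9.67 against 6.99 and 7.65 (2.21 ± 0.26, adjusted p = 0.0411), and Bmpr2 differed by 0.80 ± 0.06 (adjusted p = 0.0183). The KSL level of Bmp4 was at or next to the floor, so its difference understates any larger ratio.

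Cytokine and chemokine receptors held 3 lower members of 32, Il7r, Ccr9 and Il1r1, with a median of -0.56, or -0.36 without HSC array 1. Il1r1, the interleukin 1 receptor, was at 6.30 and 6.42 in HSC and 8.13 and 8.22 in KSL (-1.81 ± 0.08, adjusted p = 0.00865), with another probe set at 0.00. Dtx4, a ubiquitin ligase of the Notch pathway, was the only called gene of 27 in the Wnt and Notch list, at 6.12 and 6.06 against 8.59 and 8.95 (-2.68 ± 0.15, adjusted p = 0.013). These receptors and Dtx4 were thus higher on both KSL arrays.

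Immediate early genes were mixed, with 2 of 29 higher, 1 lower and a median of 0.28. Leaving out any of the 4 normal arrays left 0 calls, with medians from 0.17 to 0.43. Nr4a2, an orphan nuclear receptor, was at 10.90 and 11.24 in HSC and 8.71 and 8.05 in KSL (2.69 ± 0.29, adjusted p = 0.0321). Dusp1, a phosphatase of MAP kinases, differed by 0.47 ± 0.04 (adjusted p = 0.0258). Fosl2, an AP-1 subunit, was at 6.65 and 6.64 against 7.18 and 7.34 (-0.62 ± 0.07, adjusted p = 0.0305), but its other probe set differed by 1.25 and the mean of both by 0.315, so the direction of Fosl2 rests on the probe set. Interferon response genes had 1 called member of 33, Oasl2, a protein of the oligoadenylate synthetase family, at 8.88 and 8.88 against 7.54 and 7.83 (1.20 ± 0.10, adjusted p = 0.023). The median of that list was 0.39 and 25 members lay above 0.

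Imprinted genes, some of which restrain HSC growth, had 2 of 31 members higher and a median of 0.35. Grb10, an adaptor that dampens growth factor receptors, was at 9.25 and 9.29 in HSC and 6.59 and 6.48 in KSL (2.74 ± 0.11, adjusted p = 0.00534). Phlda2, a growth-restraining imprinted gene, differed by 1.13 ± 0.14 (adjusted p = 0.042). Ndn, which encodes the growth suppressor necdin, was at 9.45 and 8.40 against 5.64 and 5.66 (3.27 ± 0.44, adjusted p = 0.0506), just short of a call. Hox genes had Hoxb5 as the only called member of 29 and a median of 0.31, which was 0.02 without HSC array 1.

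Among surface proteins, 2 of 35 adhesion and niche genes were called lower and 0 higher, while 20 lay above 0, 15 below, and the median was 0.10. Itgal, the integrin LFA-1 chain of white cells, was at 7.42 and 7.42 in HSC and 9.31 and 9.56 in KSL (-2.02 ± 0.17, adjusted p = 0.0233). Cdh1, E-cadherin, was at the floor on both HSC arrays and at 5.10 and 4.95 in KSL, at least 3.25-fold lower (adjusted p = 0.0233). Of 25 ABC transporters, Abcg3 and the glutathione conjugate pump Abcc1 (0.66 ± 0.08, adjusted p = 0.0439) were higher. Of 8 GIMAP GTPases, Gimap5 was higher, at 7.72 and 7.37 against 5.77 and 5.85 (1.73 ± 0.22, adjusted p = 0.0437). The 16 genes of MHC class I and its loading had 0 calls, with H2-K1 at 12.52 and 12.48 against 12.07 and 12.10 (adjusted p = 0.0678). In the class II list of 13, 8 members lay above 0, 5 below, and the median was 0.20. That median lay between -0.09 and 0.355 when 1 normal array was left out. Ctss, the lysosomal protease cathepsin S, was the called member of that list and was lower, a difference of -2.71 ± 0.25 (adjusted p = 0.0244).

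Genes of energy and protein production differed little. Oxidative phosphorylation had 1 called member of 66, Cycs, cytochrome c, at 10.67 and 10.59 in HSC and 11.39 and 11.39 in KSL (-0.76 ± 0.09, adjusted p = 0.0413). The 4 probe sets of Cycs ran from -1.39 to 0.226, so its direction rests on the probe set. The median of the oxidative phosphorylation list was -0.05, which was 0.02 without HSC array 2 and -0.10 without HSC array 1. In the list of 28 glycolysis and hypoxia genes, Pgam1, a glycolytic mutase, was lower at 10.37 and 10.26 against 11.53 and 11.49 (-1.19 ± 0.15, adjusted p = 0.0428), and Meis1, a regulator placed in that list, was higher. The TCA cycle, with 17 members, had 0 calls and a median of -0.19. Cytosolic ribosomal proteins, ribosome biogenesis and translation factors had 0 calls of 35, 42 and 26, with medians of 0.00, -0.09 and -0.01. Mitochondrial ribosomal proteins had 1 of 55, Mrps14 (-0.87 ± 0.11, adjusted p = 0.043, probe sets from -1.38 to 0.065), and a median of -0.19, which was -0.04 without HSC array 2. The ribosome lists therefore lay close to the median of all genes.

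Stress and chromatin genes gave few calls. Of 30 heat shock and unfolded protein response genes, 23 lay below 0, the median was -0.44 and 1 passed: Sdf2l1, a factor of the endoplasmic reticulum, was at 8.04 and 7.99 in HSC and 9.57 and 9.62 in KSL (-1.58 ± 0.20, adjusted p = 0.043). At an unadjusted limma p under 0.05, 14 of the 30 were lower and 1 was higher, against 1339 and 1612 of all 18193 genes. Of 21 p53 targets, Tnfrsf10b, a death receptor, was higher (0.73 ± 0.09, adjusted p = 0.043). The BCL2 family, with 17 members, and 31 genes of DNA methylation and Polycomb had 0 calls each, with medians of -0.06 and 0.02, and from -0.21 to -0.06 and from -0.08 to 0.05 when 1 normal array was left out. Pmaip1, the death-promoting protein NOXA, was at 3.68 and 3.32 in HSC and 6.23 and 6.99 in KSL (-3.11 ± 0.70, adjusted p = 0.132). Its groups did not overlap, as in 19.3% of all genes with HSC lower, but the spread was too large for a call.

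**Figure D4:**
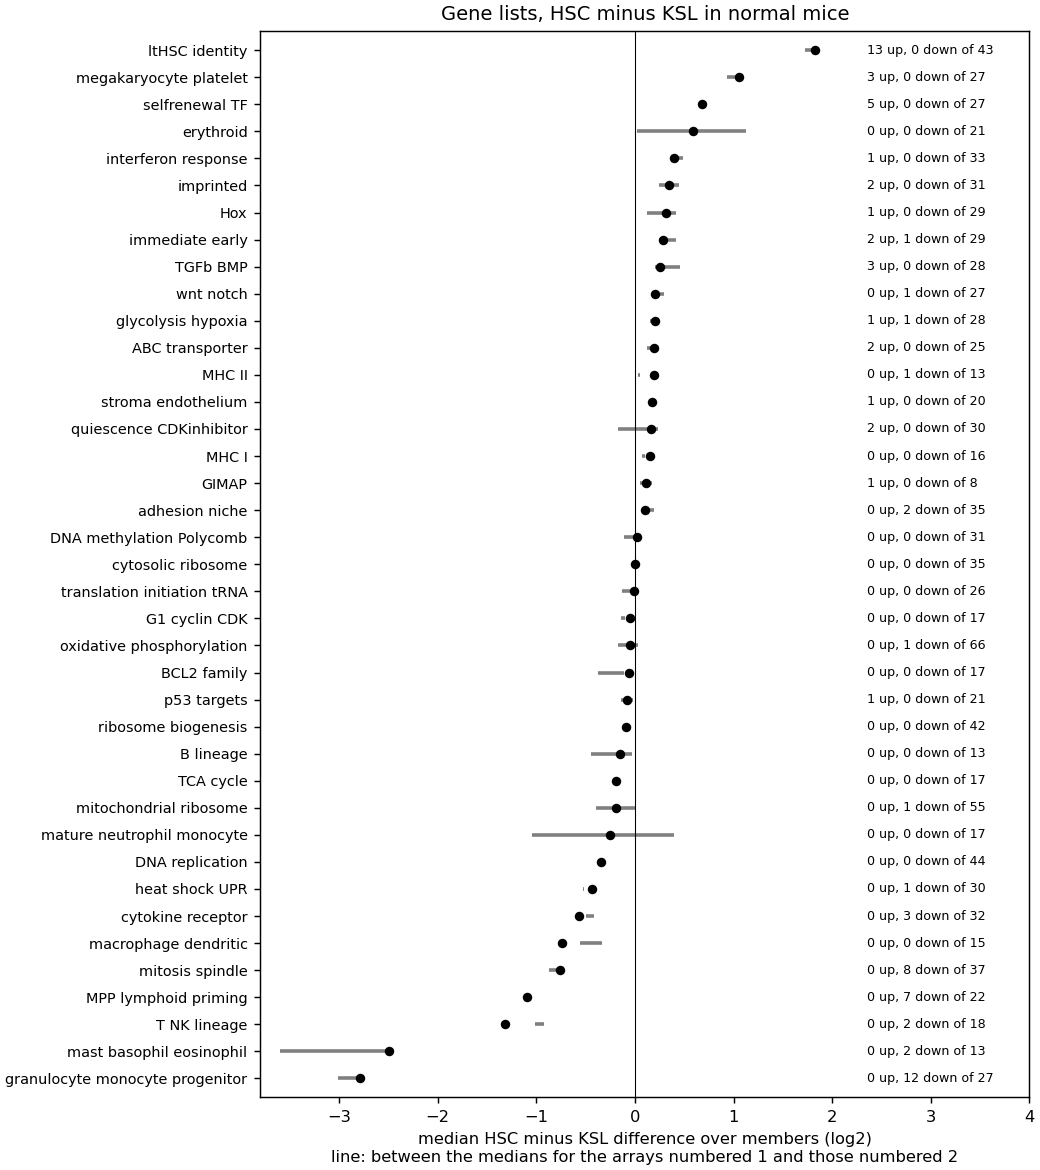
Median HSC minus KSL log2 difference of the members of 39 gene lists in normal mice (points; gate and sex-linked genes and the 2 lists made after values were seen are left out), with a line from the median for array 1 minus array 1 to that for array 2 minus array 2, and at the right the number of members called higher (up) and lower (down) of those measured. Long-term HSC identity stands at the top with 1.83 and granulocyte-monocyte progenitors at the bottom with -2.79; the lines of the erythroid and mature neutrophil lists are the widest along with that of mast cells.

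Some called genes had both arrays of a group at the floor, which gives only a lower bound for the ratio. Sgms2, a sphingomyelin synthase, was at the floor in HSC and at 6.35 and 7.03 in KSL, at least 10.3-fold lower in HSC (adjusted p = 0.0149). Cd28, the co-stimulatory receptor of T cells, was at least 7.01-fold lower, Olr1, a receptor for oxidised lipoprotein, at least 6.42-fold and Ifng, interferon gamma, at least 5.58-fold (adjusted p = 0.0279, 0.0291 and 0.0278). On the other side, Slc16a12, a monocarboxylate transporter family gene, was at 4.48 and 4.46 in HSC and at the floor in KSL, at least 2.22-fold higher, and Col4a5, a collagen chain, at least 1.35-fold higher (adjusted p = 0.000976 and 0.0141). Their KSL arrays had no measured spread because both lay at the floor.

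The same contrast was read on the 4 arrays of leukemic mice, which share no array with those of normal mice although all 8 arrays share the spread of the fit. Because the calls used that spread, they favoured genes whose leukemic replicates lie close, which itself favours no overlap on the leukemic arrays. Of the 146 genes higher in HSC of normal mice, 135 (92.5%) were also above 0 there, and 129 (88.4%) had HSC arrays entirely above KSL arrays, against 28.2% of all genes. Of the 182 lower genes, 170 (93.4%) were also below 0 and 165 (90.7%) did not overlap, against 23.2% of all genes. The medians in leukemic mice were 1.21 and -1.37. Mmrn1 differed there by 4.55, Aldh1a1 by 4.40 and Ctsg by -4.19, so these 3 genes differed in the same direction in separate arrays. The BioB spike was also higher in HSC of leukemic mice, at 9.945 and 9.892 against 9.166 and 9.486 in KSL. The part of that technical difference, found in both kinds of mice, was not tested.

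The difference between normal and leukemic mice was itself tested for each gene, and 1 gene passed, 0.00550% of those tested. Slc16a12 was the gene: HSC of leukemic mice and both KSL groups were at the floor, which gave an interaction of 1.15 (adjusted p = 0.0245) with a spread set by the floor. Large gaps that did not pass were those of Igk-V21, with -8.11 in normal and 0.90 in leukemic mice, and that other kappa segment, with -7.87 and 1.39 (adjusted p = 0.166 for both). Il1r1 was at -1.81 in normal and 0.48 in leukemic mice and Bmp4 at 2.17 and 0.00 (adjusted p = 0.0578 for both). Slpi, an inhibitor of neutrophil proteases, was at -3.94 and 0.67 (adjusted p = 0.211). These genes were picked after their values were seen, and the Slpi, Igk-V21 and Il1r1 arrays of HSC were lower in normal than in leukemic mice while Bmp4 was higher.

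The median in leukemic mice was 2.23 for HSC identity, -2.41 for granulocyte-monocyte progenitors, -2.95 for mast cell, basophil and eosinophil genes, -0.49 for mitosis and 2.28 for megakaryocyte genes, so megakaryocyte genes stood above HSC identity there. It was -0.12 for multipotent and lymphoid priming genes, against -1.09 in normal mice, and that change was not tested as a list. Of its members, Cd53 went from -2.33 to -0.47 and Rag1 from -1.06 to -0.03, with interaction adjusted p of 0.344 and 0.298.

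**Figure D5:**
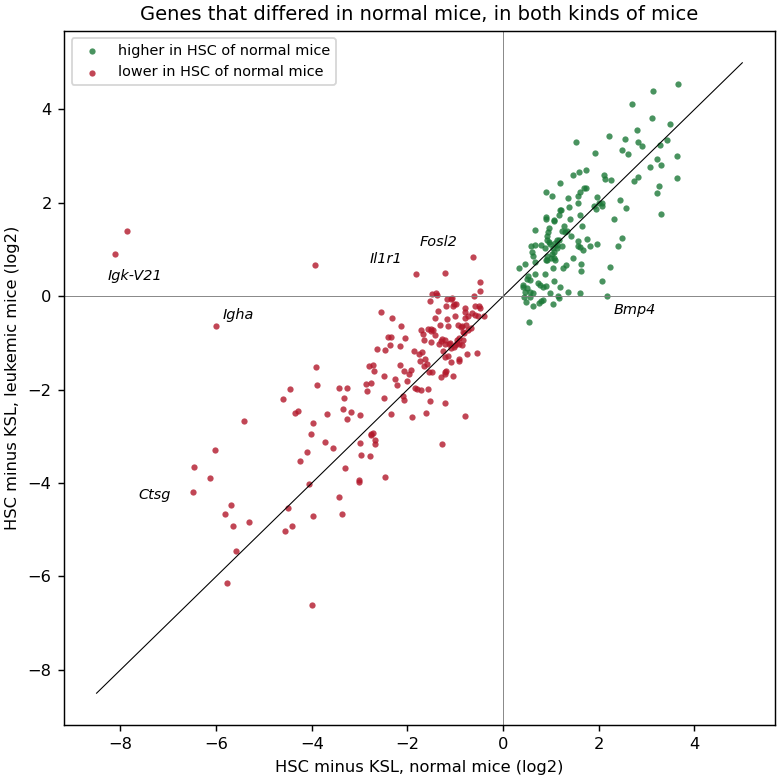
HSC minus KSL log2 difference in normal mice (horizontal axis) and in leukemic mice (vertical axis) for the 328 genes called in normal mice (green, higher in HSC; red, lower), with the line of equal difference. Most points keep their side of 0, and the kappa segments at the far left, at -8.11 (Igk-V21) and -7.87, lie above 0 in leukemic mice.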

How the data were processed

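The values are log2 intensities that the authors deposited as 1 table of 45101 probe sets and 8 arrays. RMA is named in the submitters' processing notes, with neither a version nor later steps. The design text names Nugen amplification, whereas the labels describe standard Affymetrix labelling, so the labelling is not settled. Of the probe sets, 34945 had 1 gene symbol in the platform annotation, 932 several, 9160 none and 64 were controls, and a gene was read from its brightest probe set (by the mean of all 8 arrays). That gave 18193 genes, of which 9010 had more than 1 probe set and 1495 lay at the floor on all 4 normal arrays. No filter was applied.

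In R 4.3.3, lmFit and eBayes of limma 3.58.1 fitted 1 mean per group over all 8 arrays, with 4 residual and 0.668 prior degrees of freedom, two-sided p-values adjusted over all genes by Benjamini-Hochberg, and a gene was called at an adjusted p under 0.05. The fit was tested on simulated data. The number of arrays limits the precision. Groups were read from the labels for disease state and for cell type, since the descriptions speak of embryos.

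The members and the 41 gene lists (1190 entries, 1085 measured) were chosen with earlier results of these data known. Named genes are the 12 higher and 12 lower with the largest difference whose arrays do not overlap, up to 5 floor bounds in each direction, up to 6 called members of each list in each direction (or the 2 with the smallest p), and the gate and sex-linked genes. Unnamed genes, receptors of smell and taste, small RNAs and antigen receptor segments were left out of the first 2 parts of that rule. 1 gene that the rule names is not reported here. Other members were named after their values were seen. Lists are described by counts and medians beside those of all genes. Alternatives changed the samples, the replicate block, a term for array 1 of normal mice, the normalization, the filter, the probe set and the variance model. Promoters came from the RefSeq table of GRCm38.p6. Figures were drawn with matplotlib 3.10.9 and tables made with pandas 2.3.3 in Python 3.11.15.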

Additional observations from a re-analysis of the deposited data

Results flagged for a closer look

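Slc16a12 was marked because its HSC minus KSL difference was not the same in normal and in leukemic mice by the interaction test of limma. The difference in normal minus that in leukemic mice was 1.15 on the log2 scale (adjusted p = 0.0245). The HSC arrays of normal mice were at 4.48 and 4.46 and the other 6 arrays at the floor of 3.32, so the test took its spread from values that could not vary. No interaction passed with the replicate number as a term, with other normalizations or without genes at the floor.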

How the results depend on the processing

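The counts of 146 genes higher, 182 lower and 1 interaction depend on the fit. With the 4 normal arrays alone they were 0 and 0. With the replicate block they were 7, 12 and 0 over 8 arrays, and 0 and 0 over the 4 normal arrays. Same-numbered normal arrays share the sex pattern, but the labels name no shared source and deviations correlated at 0.087 in normal and -0.0076 in leukemic mice, so they were not taken as pairs. A term for array 1 of both normal groups gave 76, 92 and 0, and leaving both arrays out, an alternative chosen after seeing the data, gave 1, 3 and 0. A common median gave 305 lower and 0 interactions, cyclic loess 0 interactions, and array weights 89 higher. Without genes at the floor there were 255, 291 and 0, and without the lowest 40% of genes 241 higher and 2 interactions. Means of probe sets gave 7 interactions, eBayes with trend 3 and testing each probe set 2. Leaving out an array gave 5 to 248 higher, 15 to 249 lower and 0 to 68 interactions. With the mean of probe sets, 326 of 328 genes kept their sign, and Fosl2 was at 0.315. The median of DNA methylation and Polycomb genes (0.02) turned to -0.011 with a common median, -0.078 and -0.044 without array 1 of HSC or of KSL, 0.051 without KSL array 2, and -0.107 without array 1 of both. The cause was not tested. Of the 76 called named genes, 68 lost the call with the replicate block over 8 arrays, 40 with the term for array 1 of both normal groups and 2 with cyclic loess. Most also lost it without KSL array 1 of normal mice, and most without KSL array 2, counted separately.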
